A study of Mus musculus with 8 samples.

Results

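Genes of pulmonary surfactant and of the alveolar type II cell that makes it were followed in the lungs of young mice given retinoic acid, dexamethasone, both or neither. The members were the probe sets that the array's annotation assigns to 7 listed genes, Sftpa1, Sftpb, Sftpc, Sftpd, Napsa, Lpcat1 and Abca3. Of these 7 genes, 5 had a named probe set, 1 each (Sftpb, Sftpc, Sftpd, Napsa and Lpcat1), among 12422 probe sets in all. Sftpa1 and Abca3 had none under their names and are not analysed here. RNA of whole lung was measured on 8 arrays, 2 in each of 4 groups. All mice were 3 days old at the first treatment, with oil or retinoic acid, and received saline or dexamethasone at day 4. The group titled Dex had dexamethasone, RA had retinoic acid, RA-Dex had both, and the title Dil, which the labels leave undefined, was read as oil followed by saline, the 1 combination not otherwise named. The sources used here do not give strain, sex, doses or the interval to collection. They also do not say whether replicates a and b came from separate animals, so the p-values reflect the spread of these arrays alone, which may be technical.

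Surfactant is a film of phospholipid and protein that lowers surface tension in the air sacs and keeps them open at the end of a breath. Type II cells synthesize its lipids and proteins, store them in lamellar bodies and secrete them. The small hydrophobic proteins SP-B (Sftpb) and SP-C (Sftpc) are cut from larger precursors on the way to the lamellar body and spread the lipid film, while the collectins SP-A (Sftpa1) and SP-D (Sftpd) bind microbes and take part in surfactant turnover. Napsin A (Napsa) is an aspartic protease that processes the SP-B precursor, ABCA3 pumps phospholipid into lamellar bodies, and LPCAT1 remakes phosphatidylcholine with saturated acyl chains, the main lipid of surfactant. Glucocorticoids are known to advance the maturation of the surfactant system before birth.

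RefSeq promoter windows (mouse build GRCm38.p6) were given for 4 of the 7 genes, Abca3, Lpcat1, Sftpa1 and Sftpb. The 250 bases before the annotated start are shown for the 2 of these that were also measured, Lpcat1 because it changed with dexamethasone and Sftpb as a surfactant protein gene for comparison. Capitals mark the only motif match in these 2 windows, on either strand, among those searched.
Lpcat1, chr13:73466981-73467230, plus strand: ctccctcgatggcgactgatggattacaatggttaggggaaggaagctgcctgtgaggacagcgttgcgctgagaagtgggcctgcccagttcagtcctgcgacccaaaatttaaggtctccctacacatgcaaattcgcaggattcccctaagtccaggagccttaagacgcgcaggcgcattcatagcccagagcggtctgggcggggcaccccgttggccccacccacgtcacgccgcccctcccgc
Sftpb, chr6:72304360-72304609, plus strand: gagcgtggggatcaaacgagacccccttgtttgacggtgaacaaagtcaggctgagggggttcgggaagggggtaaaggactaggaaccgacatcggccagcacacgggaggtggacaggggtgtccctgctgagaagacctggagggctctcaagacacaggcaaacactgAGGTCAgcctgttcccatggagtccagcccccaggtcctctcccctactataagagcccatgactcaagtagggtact

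In Sftpb the retinoic acid receptor core site AGGTCA lay at position -78 from the annotated start, and 16.3% of 32851 mouse promoter windows of 300 bases held this motif. The glucocorticoid receptor core site TGTTCT (19.0% of windows), the palindromic full glucocorticoid receptor site (0.00913%), the NKX2-1 site (4.02%), the FOXA core TGTTTAC (3.65%), the full C/EBP site (0.183%) and the C/EBP core GCAAT (26.4%) had no match in either window. The full glucocorticoid receptor site contains its core. Sftpa1, whose window is not shown, held AGGTCA on the minus strand at position -235. These matches describe letters within the windows only.

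Across the 8 arrays Lpcat1 fell with dexamethasone, while the transcripts of SP-B, SP-C and napsin A gave no call. With dexamethasone, Lpcat1 transcript fell to 0.614 of the level in the groups without it (-0.70 ± 0.11 SE on the log2 scale, 4 arrays against 4, limma adjusted p = 0.00283). The 3 other genes with a test lay within 1.17-fold of their level in the other groups and did not pass. Retinoic acid gave no call among the 4 tested genes. Sftpd, whose signal was too low to be tested with the rest, had its highest signals in Dex and its lowest in RA-Dex. Values are the authors' deposited intensity signals, already scaled to a common level on every array. For testing they were raised to a floor of 85.3, taken as log2 and fitted with limma over the 7309 probe sets that passed a filter on low signal. An adjusted p (Benjamini-Hochberg over those probe sets) under 0.05 counted as a change.

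**Figure D1:**
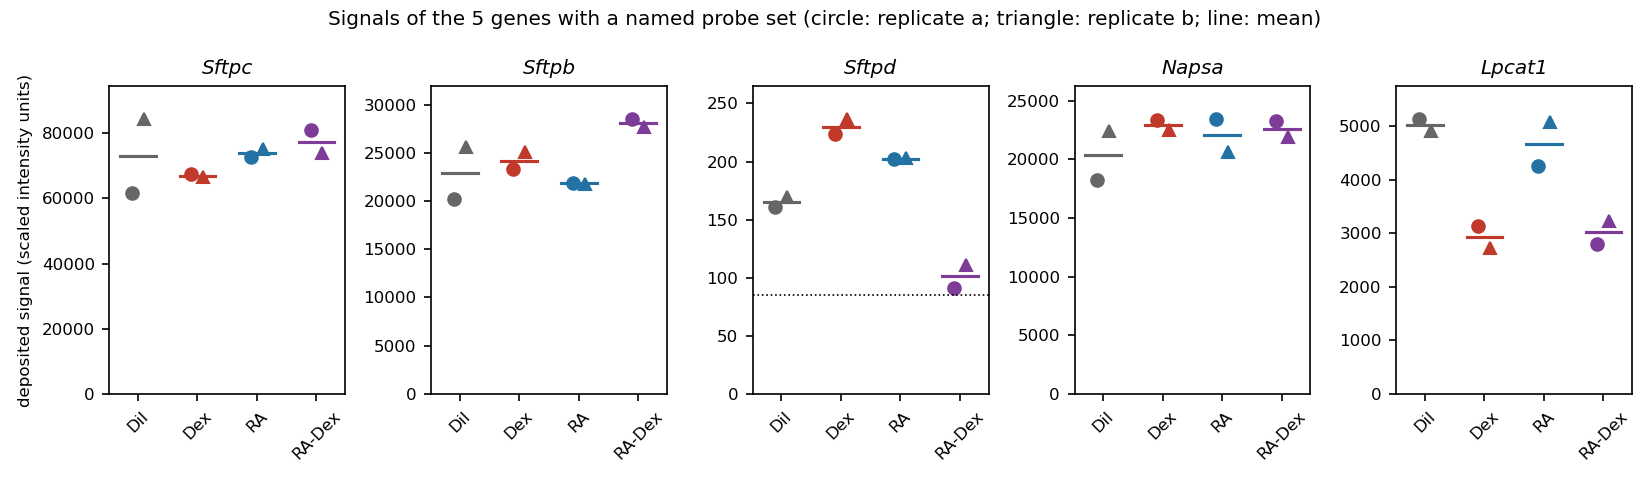
Deposited signal (vertical axes, linear from 0, each gene on its own scale) of Sftpc, Sftpb, Sftpd, Napsa and Lpcat1 on the 2 arrays of each group; circles are replicate a, triangles replicate b, lines the group means, and the dotted line in the Sftpd panel the floor of 85.3. The 4 dexamethasone arrays of Lpcat1 lie between 2724 and 3223, all below the 4 others, whereas the arrays with and without dexamethasone overlap for Sftpc and Napsa.

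The dexamethasone treatment and the tissue were looked at first. No list of retinoic acid targets was set beside them. Of 14 tested known glucocorticoid targets, 14 rose with dexamethasone, when 4.26% of all tested probe sets did (median log2 fold change 1.60, against -0.03 over all tested probe sets). That list was chosen with earlier results of these data known, so the count is not an independent check. All 12 type II markers with a probe set passed the filter on low signal, and Slc34a2, the phosphate transporter of type II cells, lay between 12180 and 16190 on all arrays (chosen after its values were seen). Median signals per array lay between 316 and 342. In whole-lung RNA, fewer cells of a type and less RNA per cell cannot be told apart.

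Sftpc encodes SP-C, a surfactant protein made by type II cells. Its signals were 61592 and 84336 in Dil, 67474 and 66508 in Dex, 72542 and 75237 in RA, and 80814 and 73917 in RA-Dex. The 2 Dil arrays were the lowest and the highest of the 8, so that all the other groups fell within the Dil range. The group means ran from RA-Dex (77365 ± 4877 SD, n = 2) through RA (73889.8 ± 1906) and Dil (72964 ± 16083) to Dex (66991 ± 683), and none of these neighbours differed past the threshold. The average effect of dexamethasone was 0.986-fold (95% interval 0.849 to 1.15, limma adjusted p = 0.940), and that of retinoic acid 1.09-fold (0.936 to 1.26, adjusted p = 0.928). Sftpc ranked 1 or 2 among all probe sets on every array. Whether its probes were near the top of their range, where a change would be compressed, was not tested.

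Sftpb encodes SP-B, without which newborn lungs cannot hold air. Its signals were 20227 and 25610.1 in Dil, 23342 and 25029 in Dex, 21867 and 21776 in RA, and 28497.5 and 27699 in RA-Dex. Both RA-Dex arrays lay above the 6 others, a pattern held by 4.71% of tested probe sets. The means fell in the order RA-Dex (28098 ± 565 SD, n = 2), Dex (24186 ± 1193), Dil (22918.5 ± 3807) and RA (21822 ± 64.4), with no pair of neighbours past the threshold. The step from RA to RA-Dex was 1.29-fold (95% interval 1.06 to 1.57, limma adjusted p = 0.187), and the averaged dexamethasone effect 1.17-fold (1.02 to 1.35, adjusted p = 0.181). That averaged effect passed without Dil replicate b (log2 fold change 0.31, adjusted p = 0.0499) and in none of the other alternatives.

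Napsa, the processing protease, had the smallest spread of the 5 genes over all arrays. Its signals were 18242 and 22439.8 in Dil, 23366 and 22477 in Dex, 23433 and 20654 in RA, and 23295 and 21927 in RA-Dex. Only Dil replicate a stood below 20654. Both Dex arrays lay above both Dil arrays, by a narrow margin, and all other pairs of groups overlapped. The share of probe sets with such a separation of Dex and Dil was not counted. The means were 22921 ± 628 (SD, n = 2) in Dex, 22611 ± 968 in RA-Dex, 22043.5 ± 1965 in RA and 20341 ± 2968 in Dil, and no neighbours differed past the threshold. The dexamethasone effect was 1.08-fold (95% interval 0.935 to 1.24, limma adjusted p = 0.569) and the retinoic acid effect 1.04-fold (0.898 to 1.19, adjusted p = 0.969).

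Dil replicate a gave the lowest signal of the 8 arrays for Sftpc, Sftpb and Napsa alike, as it did for 10.4% of tested probe sets. The same array had the highest summed signal of 11 squamous epithelium markers (10084, against 5754 in Dil replicate b and 2856 to 4500 in the 6 other arrays) and of 13 skeletal muscle markers (6292, against 5211 and 2051 to 3334). Of those squamous markers 2 were under the floor on every array. The part of these transcripts in the low surfactant signals was not tested.

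Lpcat1 encodes the acyltransferase that loads saturated fatty acid onto phosphatidylcholine. Its signals were 5129 and 4902 in Dil and 4252 and 5078 in RA, and 3142 and 2724 in Dex and 2801 and 3223 in RA-Dex. Each array with dexamethasone lay below each array without it, and whether retinoic acid had been given made no visible difference. Dexamethasone arrays were all below the others in 7.78% of tested probe sets. The order of means was Dil (5016 ± 160.5 SD, n = 2), RA (4665 ± 584), RA-Dex (3012 ± 299) and Dex (2933 ± 296), in which Dil and RA (limma adjusted p = 0.912), RA and RA-Dex (0.0572) and RA-Dex and Dex (0.99985) each missed the threshold as neighbours.

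Among the 4 tested genes, Lpcat1 alone was called for the averaged dexamethasone effect, where 7.83% of all tested probe sets passed and 3.57% fell. At an unadjusted limma p under 0.05 there were 2, Lpcat1 and Sftpb, beside 1557 of the 7309 tested probe sets. Without retinoic acid, in Dex against Dil, the fall of Lpcat1 was to 0.584 of its level (-0.78 ± 0.16 SE on the log2 scale, limma adjusted p = 0.0238), again the 1 member called beside 3.23% of all probe sets. After retinoic acid, in RA-Dex against RA, its value was 0.647-fold (-0.63 ± 0.16), which did not pass. In that comparison 0 of 4 members were called in limma beside 3.5% of all probe sets. An unadjusted limma p under 0.05 was reached by 2 of the 4, beside 1155 of the 7309 tested probe sets. The difference between the 2 dexamethasone effects was 0.15 on the log2 scale (95% interval -0.34 to 0.64, adjusted p = 0.952), so an unequal effect was not shown, and 0 of 4 members were called for it (0 at an unadjusted p under 0.05) beside 0.0137% of all. The averaged fall held in all 17 alternatives (adjusted p between 0.00185 and 0.0350). The Dex against Dil call was lost with no filter, with no intensity trend, with the replicate letter as a block (adjusted p = 0.0506) and without any 1 of the Dil or Dex arrays, when in the last case the log2 fold change lay between -0.88 and -0.67 and the adjusted p between 0.0831 and 0.211.

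Summed macrophage marker signal (15 markers) was lower on each dexamethasone array than on each other array, as was Lpcat1. Lyz2, on this list, is also on the type II list. The sum was 25524 and 26208 in Dil, 27622 and 28143 in RA, 22514 and 22729 in Dex, and 20904 and 22943 in RA-Dex. Both RA sums lay above both Dil sums, whereas the Lpcat1 mean was lower in RA (4665) than in Dil (5016). Of 12 tested macrophage markers 2 fell, Tyrobp and Csf1r, and 1 rose, Chil3, with a median of -0.25, and the alveolar macrophage receptor Marco lay at 15.5 to 125, under the floor on 7 of 8 arrays (chosen after its values were seen). The calls of Csf1r and Chil3 were each lost without any 1 of the Dex or RA-Dex arrays or RA replicate a, and also without Dil replicate a for Csf1r and Dil replicate b for Chil3 (adjusted p between 0.0505 and 0.123). Csf1r was also lost as the mean over its probe sets (log2 fold change -0.37, adjusted p = 0.114), and Chil3 with no filter (0.121) and with the replicate block (0.0517). The 9 endothelial markers had a median of -0.16 and 1 fall, Kdr. The part of either cell type in the fall of Lpcat1 was not tested. The squamous and muscle signal was highest in the Dil arrays, and its part was not tested either.

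**Figure D2:**
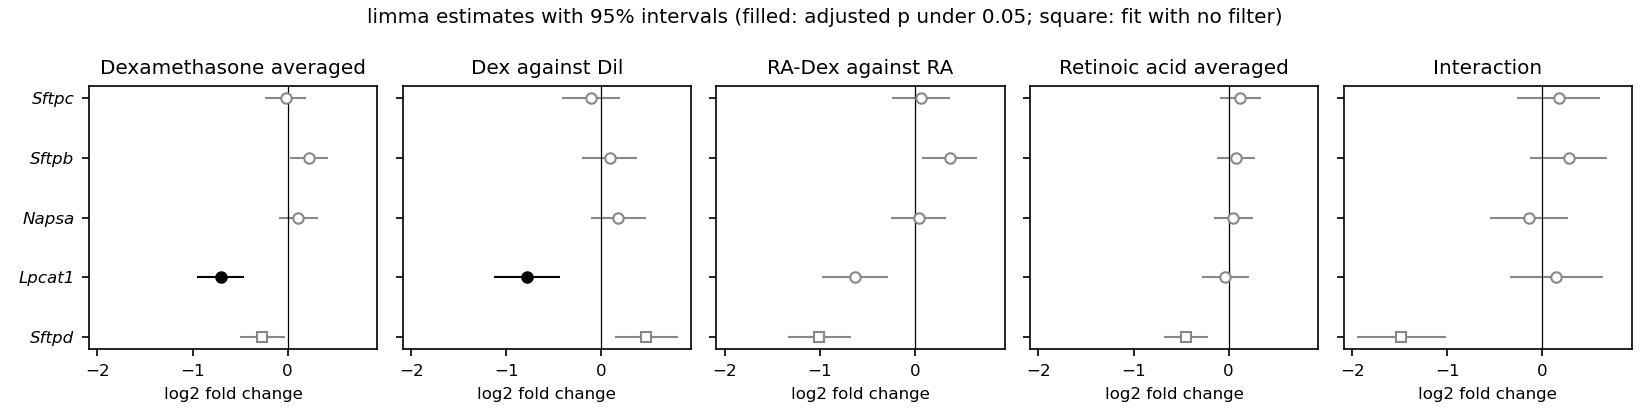
Log2 fold change (horizontal axes) of the 5 genes in 5 comparisons, with 95% intervals from limma; filled symbols passed an adjusted p of 0.05, and squares mark Sftpd, which is taken from the fit with no filter. Lpcat1 is filled in the averaged dexamethasone effect (-0.70) and in Dex against Dil (-0.78), and every interval of Sftpc and Napsa crosses 0.

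Sftpd encodes SP-D, a collectin made by type II and club cells. Its probe set was dim, at 161 and 169.9 in Dil, 223 and 237 in Dex, 202 and 203 in RA, and 91.2 and 111 in RA-Dex. No array was at the floor of 85.3, but the mean over the arrays (167) was under the filter of 201, so it was not among the tested probe sets and no detection call was used. Within each group the replicates lay close together, and no groups overlapped. How many probe sets separate all groups in this way was not counted. The means were ordered Dex (229.98 ± 9.41 SD, n = 2), RA (203 ± 0.214), Dil (166 ± 6.13) and RA-Dex (101 ± 14.2).

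Dexamethasone thus went with a higher Sftpd signal in mice given oil and a lower signal in mice given retinoic acid. With no filter, Dex against Dil was 1.39-fold (95% interval 1.104 to 1.75, limma adjusted p = 0.272) and RA-Dex against RA 0.497-fold (0.395 to 0.626, adjusted p = 0.0537), where 0.773% and 1.15% of 12422 probe sets passed. The difference between these effects was -1.48 ± 0.18 SE on the log2 scale, with an unadjusted p of 0.000531 and an adjusted p of 0.188 in limma, and it did not pass, as 0.177% of probe sets did. Opposite shifts without overlap were found in 3.49% of all probe sets and in 4.4% of the 7591 probe sets above the floor on all arrays. RA-Dex against Dex was 0.438-fold (0.348 to 0.551, adjusted p = 0.148), where 0.129% passed. None of the 5 comparisons drawn for Sftpd passed in limma, in a range of signal where a change can be compressed by background.

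Averaged over the dexamethasone treatment, retinoic acid changed 0 of the 4 tested genes (limma, also 0 at an unadjusted p under 0.05), beside 0.15% of all tested probe sets. Without dexamethasone, RA against Dil (0 called, 0 at an unadjusted p under 0.05, beside 0.0274% of all in limma) was 1.03-fold for Sftpc (95% interval 0.829 to 1.27), 0.959-fold for Sftpb (0.786 to 1.17), 1.09-fold for Napsa (0.889 to 1.33) and 0.927-fold for Lpcat1 (0.728 to 1.18). With dexamethasone, RA-Dex against Dex (0 called, 0 at an unadjusted p under 0.05, beside 0.0958%) was 1.15-fold for Sftpc (0.933 to 1.43), 1.16-fold for Sftpb (0.953 to 1.42), 0.986-fold for Napsa (0.806 to 1.21) and 1.03-fold for Lpcat1 (0.807 to 1.31). Each of these intervals includes no change, and changes of up to its bounds in either direction remained possible. These comparisons share their groups with the dexamethasone comparisons above.

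Among themselves the genes did not move as a unit. Over the 8 arrays, Pearson's r between log2 signals was highest for Sftpb with Sftpc (0.61) and Sftpb with Napsa (0.58) and lowest for Lpcat1 with Sftpb (-0.68) and Sftpb with Sftpd (-0.64). These are descriptions over arrays that share 4 treatment groups. Dil replicate a was the lowest array for Sftpc, Sftpb and Napsa alike, and its part in their r values was not tested. The spread over all arrays was low for Napsa (SD 0.12 on the log2 scale), Sftpc (0.15) and Sftpb (0.18) and higher for Lpcat1 (0.39) and Sftpd (0.49), against a median of 0.27 over tested probe sets. Pooled over the groups, the SD within groups ran from 0.11 for Sftpd to 0.17 for Sftpc, below the median of 0.23. In Dil alone it was 0.32 for Sftpc and 0.24 for Sftpb. For Sftpc (0.17) and Napsa (0.13) the pooled SD was above that over all arrays.

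The genes whose pattern over the 8 arrays was most like that of Lpcat1 were Traf4, Plac8 and Plk2. Traf4, an adaptor of receptor signalling and cell polarity, had a Pearson's r of 0.99 with Lpcat1 and signals of 2231 and 2258 in Dil, 1930 and 2496 in RA, 1387 and 1111 in Dex, and 1132 and 1314 in RA-Dex. Plac8 (r = 0.99) fell to 0.388 of its level with dexamethasone and Plk2, a stress-responsive kinase (r = 0.98), to 0.382, while Traf4 fell to 0.554 (limma adjusted p = 0.000691, 0.00175 and 0.00294). Since these 3 genes were picked for their likeness to Lpcat1 over the same arrays, that choice largely fixed their dexamethasone values, which are given as a description. Closest to Sftpb were Epas1, the hypoxia-inducible factor of lung endothelium and type II cells (r = 0.97), Rap1gap (0.95) and the clock-controlled factor Tef (0.94), of which Rap1gap rose with dexamethasone (1.46-fold, adjusted p = 0.0352). For Napsa they were Chordc1 (0.95), Xpa (0.94) and Atp5g1 (0.94), for Sftpc Btrc (0.94), Col6a2 (0.94) and Rps28 (0.93), and for Sftpd Acot7 (0.97), Tbrg4 (0.96) and Ptgds (0.96), and none of these 9 passed for dexamethasone. The genes like Sftpb, Napsa, Sftpc and Sftpd were picked in the same way, so their dexamethasone values are also a description only.

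**Figure D3:**
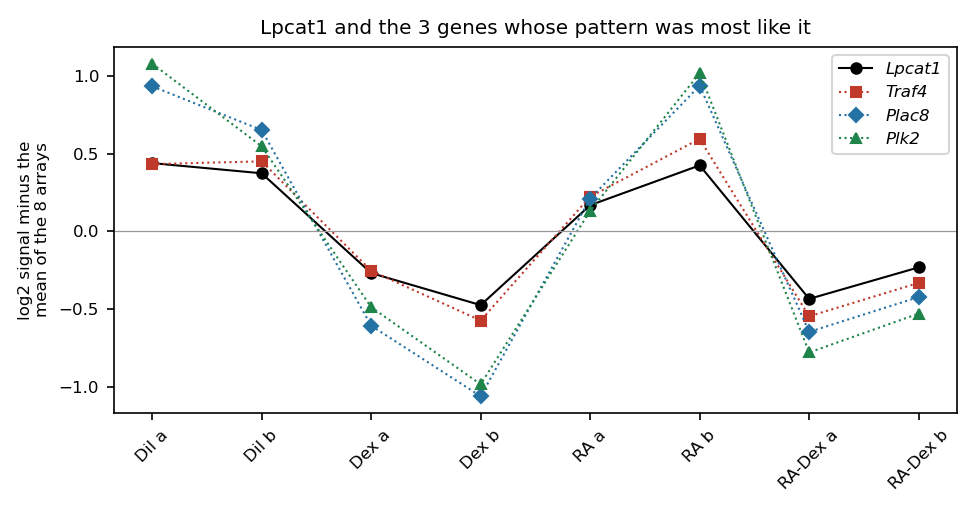
Log2 signal of Lpcat1, Traf4, Plac8 and Plk2 on each array, minus the gene's mean over the 8 arrays (vertical axis); lines join the arrays only to guide the eye. All 4 genes lie above their mean on the Dil and RA arrays and below it on the 4 dexamethasone arrays.

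The wider surfactant system was described with 5 lists, for type II markers, surfactant lipid synthesis, lamellar bodies, surfactant uptake and clearance, and lung epithelial transcription factors. Together they held 68 tested genes, of which 7 rose and 3 fell with dexamethasone and 58 did not pass, or 14.7% called beside 7.83% of all tested probe sets. These shares are not on equal terms. The lists were chosen with earlier results of these data known and hold only the brightest probe set of each gene. The calls of Scd1, Scd2, Lamp2 and Nfix were each lost in several alternatives, given below. The median of the 68 was 0.02 on the log2 scale, against -0.03 for all. Retinoic acid gave 0 calls among them in limma, with 5 at an unadjusted p under 0.05 beside 460 of the 7309 tested probe sets. The difference between the 2 dexamethasone effects also gave 0 calls, with 3 at that p beside 409 of the 7309.

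Among 12 tested type II markers, 1 rose and 2 fell with dexamethasone (median -0.04). The rise was that of Ctsh, cathepsin H, a lysosomal protease that works with napsin A on the SP-B and SP-C precursors. Ctsh signals were 7228 and 6165 in Dil, 6395 and 8002 in RA, 14900.0 and 13850.0 in Dex, and 14330.0 and 14390.0 in RA-Dex, a rise of 2.08-fold (log2 fold change 1.06 ± 0.10 SE, limma adjusted p = 0.000104) that held in all 17 alternatives. Set beside Napsa at 1.08-fold, the 2 proteases of precursor processing thus had different values. Both Dex against Dil (2.15-fold, adjusted p = 0.00179) and RA-Dex against RA (2.01-fold, adjusted p = 0.00337) passed for Ctsh.

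The falls were those of Muc1 and Scd1. Muc1, a membrane mucin of the apical surface, had 8141 and 9821 in Dil, 11550.0 and 11580.0 in RA, 5595 and 5985 in Dex, and 7354 and 6898 in RA-Dex, and fell to 0.631 of its level (-0.66 ± 0.10, limma adjusted p = 0.00159). The dexamethasone arrays were all below the others. Scd1, the desaturase that makes monounsaturated fatty acids, had 5784 and 6082 in Dil, 10620.0 and 10200.0 in RA, 5150.0 and 4707 in Dex, and 5197 and 6930.0 in RA-Dex. Its high values were those of the RA arrays, and RA against Dil was 1.75-fold (adjusted p = 0.166), which did not pass. The fall of Scd1 with dexamethasone (0.692-fold, adjusted p = 0.0134) was lost in 5 of 17 alternatives, namely with no filter (adjusted p = 0.0935), with no intensity trend (0.0699), without Dex replicate b (0.0690), without RA-Dex replicate a (0.0549) and as the mean over its probe sets (log2 fold change -0.32, adjusted p = 0.206). It passed in RA-Dex against RA (0.577-fold, adjusted p = 0.0186) but not in Dex against Dil (0.830-fold, adjusted p = 0.485), a difference that did not pass itself (adjusted p = 0.862). Fabp5, a fatty acid carrier, had a value of 0.807-fold (adjusted p = 0.206). Slc34a2 at 1.07-fold (adjusted p = 0.648) and the type II transcription factor Cebpa at 1.01-fold (adjusted p = 0.962), both chosen after their values were seen, did not pass.

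In surfactant lipid synthesis 3 of 15 tested genes rose and 1, Scd1, fell (median 0.09). Lpin1, a phosphatidate phosphatase on the path to diacylglycerol, had signals of 1325 and 1317 in Dex and 1537 and 1460.0 in RA-Dex, against 341 and 53.9 in Dil and 415 and 248 in RA. It rose 6.01-fold (2.59 ± 0.36, limma adjusted p = 0.00122), a size that rests in part on the floor, under which 1 Dil array lay, and its call was lost with no filter (adjusted p = 0.0892). Cds2, which makes CDP-diacylglycerol, the precursor of phosphatidylglycerol and phosphatidylinositol, rose 2.03-fold (adjusted p = 0.00573), which was lost with no filter (0.0829). Scd2 rose 1.44-fold (adjusted p = 0.0416), a call lost without Dil replicate b, either Dex array, RA replicate a or either RA-Dex array (adjusted p between 0.0647 and 0.178). The call of Scd2 was lost in 11 of 17 alternatives, the others being quantile normalization (0.0517), no filter (0.255), no intensity trend (0.138), the replicate block (0.0717) and the mean over its probe sets (log2 fold change 0.33, adjusted p = 0.152). The choline pathway enzymes Pcyt1a (1.22-fold, adjusted p = 0.338) and Chka (1.47-fold, 0.0872) and the fatty acid synthase Fasn (1.36-fold, 0.0709), chosen after their values were seen, did not pass.

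**Figure D4:**
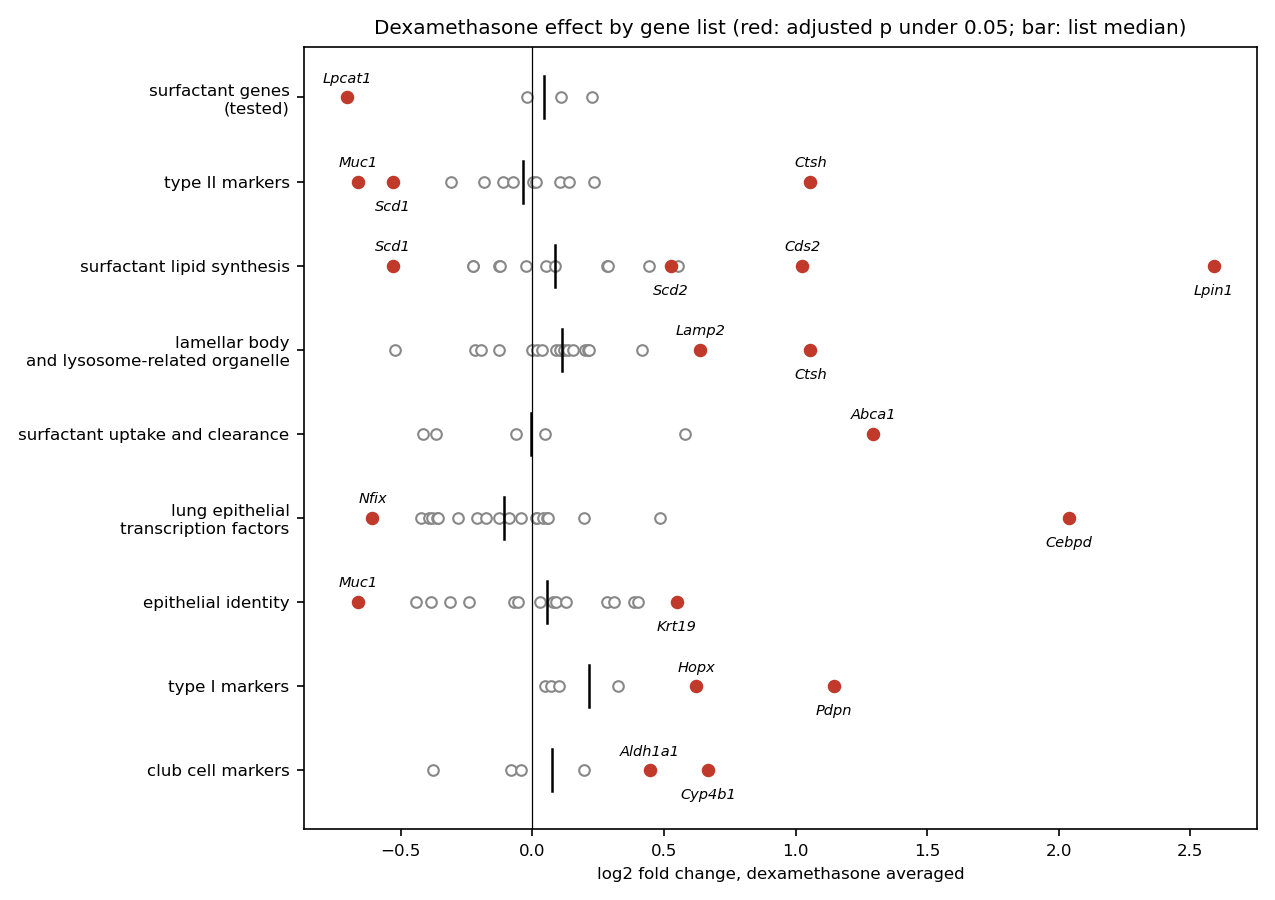
Log2 fold change for the averaged dexamethasone effect (horizontal axis) of each tested gene in 9 lists; red points passed an adjusted p of 0.05 and are named, open points did not, and black bars are list medians. Lpcat1 (-0.70) lies lowest of the tested surfactant genes, Muc1 (-0.66) and Scd1 (-0.53) lie lowest and Ctsh (1.06) highest of the type II markers, and the list medians lie between -0.11 and 0.21.

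Of 18 tested lamellar body and lysosome-related organelle genes, 4 had an unadjusted limma p under 0.05, beside 1557 of the 7309 tested probe sets. By adjusted p 2 rose and 0 fell (median 0.11). They were Ctsh and Lamp2, a lysosomal membrane protein at 1.56-fold (adjusted p = 0.0404), whose call was lost without Dil replicate b, either Dex array, RA replicate b or RA-Dex replicate b (adjusted p between 0.0958 and 0.172). It was also lost with no filter (0.242), no intensity trend (0.113), the replicate block (0.0639) and the mean over its probe sets (adjusted p = 0.0887), or in 9 of 17 alternatives. The membrane fusion protein Snap23 (1.34-fold, adjusted p = 0.216) and annexin A2, Anxa2 (1.16-fold, 0.220), did not pass. Among 6 tested uptake and clearance genes, Abca1, which exports cholesterol and phospholipid from cells, rose 2.45-fold (1.30 ± 0.19, limma adjusted p = 0.00156, lost with no filter at 0.0689 and as the mean over its probe sets at 0.0851, with a log2 fold change of 0.80). Cd36 (1.49-fold), Spi1 (0.776-fold) and the receptor subunit Csf2ra (0.749-fold) did not pass.

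Of 20 tested lung epithelial transcription factors, 1 rose and 1 fell with dexamethasone. Cebpd, a C/EBP factor and glucocorticoid target, rose 4.11-fold, from 2747 and 2586 in Dil and 4660.0 and 3334 in RA to 12570.0 and 12010.0 in Dex and 14570.0 and 14280.0 in RA-Dex (limma adjusted p = 2.76e-06). Nfix fell to 0.656 of its level (adjusted p = 0.0253), a call lost without Dil replicate b, either Dex array, RA replicate a or RA-Dex replicate b (adjusted p between 0.0568 and 0.119). Nfix was also lost with no filter (0.181), no intensity trend (0.0918) and the mean over its probe sets (log2 fold change -0.38, adjusted p = 0.146), and its other tested probe set was at -0.15. Elf3 (0.779-fold, adjusted p = 0.123) and Gata6 (0.762-fold, 0.137) did not pass.

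The epithelium as a whole was set beside these genes. Of 16 tested general epithelial genes, Krt19 rose (1.46-fold, limma adjusted p = 0.00868, lost without Dex replicate a at 0.0559) and Muc1 fell, with a median of 0.05. The summed signal of the 17 epithelial genes was 38608 and 40774 in Dil, 41961 and 40449 in Dex, 44521 and 43734 in RA, and 44673 and 44053 in RA-Dex. The Dex arrays lay near Dil and below RA, and the RA-Dex arrays lay near RA. Such a sum weighs the brightest genes most. The part of the epithelial share in the Lpcat1 values, which were low in both Dex and RA-Dex, was not tested. Of 6 tested type I markers 2 rose, Hopx (1.54-fold) and Pdpn (2.21-fold, a call that went with no filter, adjusted p = 0.167, and when RA-Dex replicate b was left out, 0.0580), with a median of 0.21. Of 6 tested club cell markers 2 rose, Cyp4b1 (1.59-fold, adjusted p = 0.00136) and Aldh1a1 (1.36-fold, adjusted p = 0.0156, lost without either Dex array or RA-Dex replicate b, with no filter at 0.0755, with no intensity trend at 0.0928 and as the mean over its probe sets at 0.175), with a median of 0.08. Of the 2 tested ciliated cell markers 0 passed in limma (1 at an unadjusted p under 0.05, beside 1557 of 7309 tested probe sets).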

How the data were processed

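The values analysed were intensity signals as deposited, 1 per probe set and array, already scaled by the authors, since the 2% trimmed mean came to 800.4 for each of the 8 arrays. The sources used here do not give the software or the scaling method, and detection calls were left unused. Of 12488 probe sets, 66 controls were left out. Signals were raised to the pooled 25th percentile (85.3), taken as log2 and filtered on a mean above the pooled 40th percentile (signal 200.8), which left 7309. limma 3.58.1 in R 4.3.3 fitted 1 mean per group over all 8 arrays (4 residual degrees of freedom, eBayes with an intensity trend, two-sided), with Benjamini-Hochberg adjustment over the 7309. Probe symbols came from the array annotation, brought to current symbols by Entrez ID. A gene was represented by its brightest probe set. Array number, 2 per group, limits the precision. The members, the gene lists and the tests were chosen with earlier results of these data known. Named genes were the members, up to 4 genes of each list by smallest p for dexamethasone and the 3 most like each member, while others are marked. The procedure was tested on simulated data. Replicate letters were not taken as pairs, since the a minus b differences of the groups correlated between -0.22 and 0.14.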

Additional observations from a re-analysis of the deposited data

Results flagged for a closer look

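Sftpd stood out because both Dex arrays lay above both Dil arrays while both RA-Dex arrays lay below both RA arrays. The difference between the effect of dexamethasone in mice given retinoic acid and in mice given oil was -1.48 on the log2 scale (SE 0.18). In limma with no filter its adjusted p was 0.188, which did not pass, and at a mean signal of 167 the probe set was under the filter used for testing. Such opposite shifts were seen in 3.49% of all 12422 probe sets.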

How the results depend on the processing

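Of 119 counts of called members under 17 alternatives, 108 stayed within 1.5 times the count reported, and of 483 member fold changes 445 kept their direction and their side of the threshold, 11 of Lpcat1 and Sftpb changed side, 4 of Sftpc were 0 after quantile normalization, and 23, all uncalled, changed sign. Many of the fold changes could not move, since several alternatives alter only the test. Leaving out an array of neither group likewise leaves a comparison of 2 groups at its value. Most of the counts were reported as 0 and stayed 0. The sign changes came with cyclic loess in RA-Dex against RA (Napsa -0.022, Sftpc -0.025) and otherwise on leaving out each array, with these log2 ranges. For dexamethasone averaged, Sftpc ran from -0.13 to 0.093. For retinoic acid averaged, Lpcat1 ran from -0.10 to 0.028, Napsa from -0.024 to 0.13 and Sftpb from -0.0070 to 0.16. In Dex against Dil, Sftpb ran from -0.083 to 0.26 and Sftpc from -0.33 to 0.12, and in RA-Dex against RA Napsa from -0.052 to 0.13. In RA against Dil, Lpcat1 ran from -0.24 to 0.018, Napsa from -0.029 to 0.27, Sftpb from -0.23 to 0.11 and Sftpc from -0.19 to 0.26. In RA-Dex against Dex, Lpcat1 ran from -0.065 to 0.14 and Napsa from -0.064 to 0.024. The difference between the dexamethasone effects ran from -0.29 to 0.0085 for Napsa and from -0.056 to 0.40 for Sftpc. For the averaged dexamethasone effect the count was 1 to 2 when each array was left out in turn, reaching 2 without Dil replicate b. For Dex against Dil it was 0 with no filter (Lpcat1 adjusted p = 0.106), 0 with no intensity trend (0.103) and 0 with the replicate letter as a block (0.0506), and 0 to 1 when each array was left out. For RA-Dex against RA it was 1 with quantile normalization (0.0427), 1 with cyclic loess (0.0482) and 1 with the stricter filter (0.0417), Lpcat1 each time. No filter means more probe sets in the adjustment. The eBayes spread model is then also fitted anew, with the low-signal probe sets included. For Cebpd, at the same log2 fold change (2.04), the limma adjusted p went from 2.76e-06 to 0.00500. The part of each step in the lost calls was not tested, nor was the cause in the other alternatives. Over all tested probe sets, Dex against Dil gave 236 calls, but 96 with no filter, 112 with no intensity trend and 80 to 271 when each array was left out. The averaged dexamethasone effect gave 572, but 349 with no filter and 307 to 542 when each array was left out. Low signal limits Sftpd, and the letters share only a number.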
